A study of Mus musculus with 15 samples.

Results

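The genes described here encode glucose-6-phosphatase, the carrier that brings its substrate, and other enzymes that commit the liver to making glucose. They were taken by name: G6pc, Slc37a4, Pck1, Pck2, Fbp1 and Pcx. Of these 6 names, 5 have a row among the 16330 genes of the deposited table, and Pck2 was not analysed here. Messenger RNA of mouse liver was sequenced in 15 libraries, which fall into 4 groups. Livers of the luciferase genotype, named for a light-emitting enzyme, gave 5 libraries with a water gavage, called M1 to M5, and 3 with an ethanol gavage, M10 to M12. Livers of the LbNOX genotype gave 4 libraries with water, M6 to M9, and 3 with ethanol, M13 to M15. LbNOX is a water-forming NADH oxidase of bacterial origin, which regenerates NAD+ when it is expressed in animal cells. All livers were collected 6 h after the gavage. The design text of the series names wild-type or ChREBP mice instead of these constructs, so the state of ChREBP in the animals is not settled here. The promoter and vector of the constructs and the age, sex and strain of the mice are not given in the sources used here. Nor do the labels say that each library is a separate animal, so the p-values describe the spread between these libraries, which may be technical.

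Gluconeogenesis builds glucose from lactate, alanine, glycerol and other precursors, and the liver uses it to hold blood glucose during fasting. Pcx, the mitochondrial pyruvate carboxylase, makes oxaloacetate, and Pck1, the cytosolic phosphoenolpyruvate carboxykinase, turns oxaloacetate into phosphoenolpyruvate. Fbp1 removes a phosphate from fructose bisphosphate. Slc37a4 carries glucose 6-phosphate into the endoplasmic reticulum, where the catalytic unit of the phosphatase, G6pc, releases free glucose. The breakdown of ethanol in hepatocytes makes NADH from NAD+. Glucagon and glucocorticoids are known to raise Pck1 and G6pc, insulin to lower them, and sugar-derived signals acting through ChREBP to raise G6pc.

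G6pc lies on chr11:101367561-101377903 of GRCm38 (plus strand, ENSMUSG00000078650.2, 5 exons in transcript G6pc-201). Slc37a4 lies on chr9:44396852-44402968 (plus strand, 9 exons), Pck1 on chr2:173153048-173159273 (plus strand, 10 exons), Fbp1 on chr13:62864753-62888282 (minus strand, 7 exons) and Pcx on chr19:4510472-4621752 (plus strand, 21 exons in transcript Pcx-204). The bases just upstream of G6pc and Pck1 are shown because these genes, both named above as targets of glucagon, had unlike values after ethanol. The sequences are from RefSeq on GRCm38.p6, plus strand, 5′ to 3′: chr11:101367466-101367560 for G6pc and chr2:173152823-173153047 for Pck1. Capitals mark the forkhead core TGTTT in G6pc and the cAMP-response-element variant TTACGTCA in Pck1.
G6pc: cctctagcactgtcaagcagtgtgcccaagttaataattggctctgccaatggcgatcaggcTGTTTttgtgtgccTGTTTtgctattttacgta
Pck1: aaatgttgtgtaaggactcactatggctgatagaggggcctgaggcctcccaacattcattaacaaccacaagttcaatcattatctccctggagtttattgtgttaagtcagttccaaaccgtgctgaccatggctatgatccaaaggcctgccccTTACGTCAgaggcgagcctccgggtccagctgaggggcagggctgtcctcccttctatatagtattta
In the 250 bases before the RefSeq start, read on both strands, G6pc held TGTTT 4 times and Pck1, Fbp1 and Pcx held it 0 times. The RefSeq start of G6pc, 101367716, lies inside the gene as placed above, and the printed stretch ends 156 bases before it. The matches 188 to 184 and 174 to 170 bases before that start are those marked. The matches 141 to 137 and 25 to 21 bases before it lie past the printed stretch, inside the gene as placed above. Of 32851 such windows counted, with 1 chromosome left out, 46.4% held TGTTT at least once and 2.30% at least 4 times. Slc37a4 has 3 RefSeq starts, of which 2 had TGTTT once. TTACGTCA occurred once before Pck1 and in none of the other members' windows, and 0.447% of all windows held it; it overlaps the shorter core TGACG, present in 17.8% of windows, which 2 of the Slc37a4 windows also held. The E-box CACGTG was found in 1 Pcx window, against 6.02% of all windows, and TGACGTCA in no member, against 1.55%. These matches describe letters and not bound sites. Other variants of the cAMP-response element were not searched, so the counts do not show that G6pc lacks such an element.

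Depth was 10.6 to 23.7 M reads per library, and each member had at least 1177 reads in every library. Alb and the other hepatocyte markers were abundant in all 15 libraries, the 6 listed markers summing to a mean of 697389 ± 72649 normalized counts in luciferase water livers (SD, n = 5). M3 and M8 lay farthest from the other libraries of their groups and carried pancreatic transcripts. The 4 pancreas and fat markers with a row, of 5 listed, summed to 465 in M3 and 3461 in M8. The sum ranged from 9.99 to 465 for luciferase with water, 15.6 to 3461 for LbNOX with water, 43.6 to 91 for luciferase with ethanol and 34.4 to 123 for LbNOX with ethanol, and Cela1, Cpa1, Prss2 and Adipoq were each listed at 0 in at least 1 library. Both were also high for endothelial markers, at a list median of 1.08 in M3 and 1.00 in M8 on a centred log2 scale, and for neutrophil markers, at 0.92 and 1.01. M3 was high for T and NK cell markers (1.12) and M8 low for hepatocyte markers (−0.61). M3 and M8 had the lowest level of each of the 5 members within their groups, and the part of these other transcripts in that was not tested. Among the LbNOX ethanol libraries, M15 was high for Kupffer cell (1.73), neutrophil (1.16), cholangiocyte (1.11) and endothelial (0.44) markers. M13 was higher still for neutrophil markers (2.87) and low for red blood cell markers (−1.54). M15 had the lowest level in its group for 3 of the 5 members, and the part of its other transcripts in that was not tested. Of 5 T and NK cell markers tested, 1 fell in luciferase livers after ethanol, with a median log2 fold change of −0.91 and sums of 27.8 to 52.3 against 51.6 to 208 after water. The 4 cholangiocyte markers tested had a median of 1.06 there, with sums of 778 to 996 against 739 to 1577, and the 4 Kupffer cell markers tested one of −0.54, with sums of 553 to 685 against 669 to 1764. Krt19, a cholangiocyte keratin also made by intestine, had 24.5 in M11, 107 in M12 and 231 in M10. In LbNOX livers 6 neutrophil markers had a median of 1.98 after ethanol, with sums of 185 to 715 against 114 to 305 after water. Sums are over every listed marker with a row. The part of these cells in the values below was not tested. In bulk liver, fewer cells of a type and less RNA per cell cannot be told apart.

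Ethanol raised the message of the last step of glucose production in luciferase livers, by 11.9-fold for G6pc and 2.39-fold for Slc37a4. Pck1, Fbp1 and Pcx did not pass the test in that comparison. In LbNOX livers none of the 5 members passed the test after ethanol, and the ethanol effect on G6pc differed between the constructs. The test was limma on log2(normalized count + 1), with p-values adjusted by Benjamini-Hochberg over 13570 genes and calls made at an adjusted p below 0.05. Of all genes tested, 7.75% were called in luciferase livers after ethanol, against 2 of the 5 members. The members were chosen with earlier results of these data known. Their shares beside those of all genes, here and below, are therefore descriptions and not tests.

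**Figure D1:**
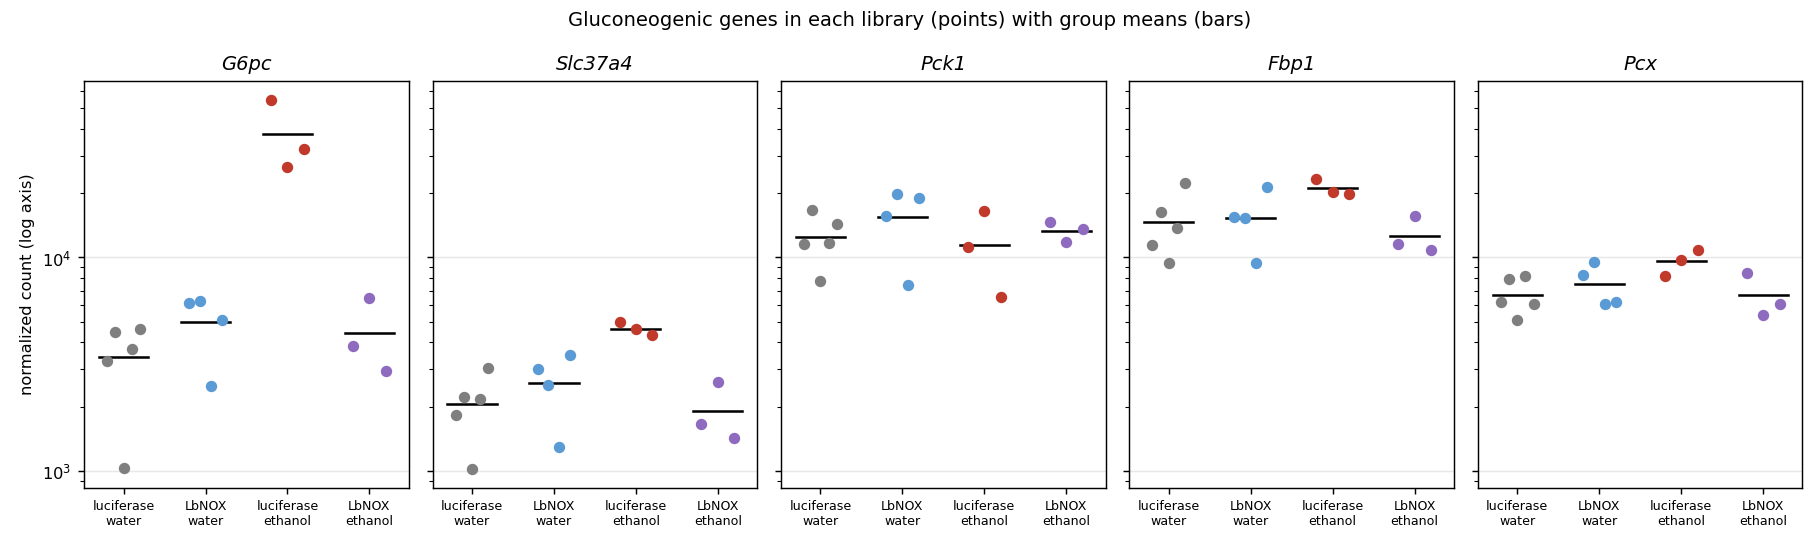
Normalized counts of the 5 genes on a shared log axis, with a point for each library and a bar at the mean of each of the 4 groups. The 3 luciferase ethanol libraries stand above all others for G6pc, from 26516 to 54947, and for Slc37a4, while the groups overlap for Pck1.

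G6pc, whose product releases free glucose, had normalized counts of 3287, 4455, 1029.7, 3746 and 4605 in luciferase water libraries M1 to M5. After ethanol the luciferase libraries M10 to M12 had 54947, 26516 and 32209. The LbNOX water libraries M6 to M9 had 6136, 6243, 2500.4 and 5119, and the LbNOX ethanol libraries M13 to M15 had 3859, 6436 and 2929.8. The luciferase ethanol libraries were thus well above every other library, the lowest of them being 4.12 times the highest of the other 12. The means for luciferase were 3424 ± 1442 after water (SD, n = 5) and 37891 ± 15043 after ethanol (SD, n = 3), a log2 fold change of 3.57 (95% interval 2.58 to 4.56, adjusted p = 0.000367 by limma). By abundance, G6pc ranked between 494 and 2490 in luciferase water libraries and between 35 and 63 after ethanol, when it took 0.158% to 0.330% of all reads. Among the 13570 genes, its log2 fold change was the 42nd highest and its p the 66th smallest. The value was 3.18 without M3 and M8, 3.47 by edgeR and 3.47 by DESeq2 on recovered reads, and G6pc was called in every one of these fits.

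The intestinal markers Vil1 and Cdh17, from a list of kidney and intestine genes because these tissues also express G6pc, were high in 2 of the 3 luciferase ethanol libraries. Cdh17 had 123 normalized counts in M10 and 61.1 in M12, and was listed at 0 in M11. Vil1 had 81.1 in M10, 56.1 in M12 and 3.5 in M11. The whole list, of which 3 of 6 genes have a row, summed to 1638 to 1942 in luciferase ethanol livers, 1515 to 2821 in luciferase water, 1457 to 2439 in LbNOX water and 1133 to 1791 in LbNOX ethanol livers, most of it from Fabp2, which liver also expresses. G6pc had 54947 in M10, 32209 in M12 and 26516 in M11, the same order as Cdh17, Vil1 and Krt19. In M11, where Cdh17 was at 0, G6pc was above every library of the other groups. The part of intestinal transcripts in the G6pc values of M10, M11 and M12 was not tested.

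Slc37a4, the glucose 6-phosphate carrier that feeds G6pc, had 1836, 2215, 1019, 2169.9 and 3042 normalized counts in luciferase water libraries. Luciferase ethanol libraries had 4977, 4610.0 and 4351. LbNOX livers had 2999.6, 2523, 1293 and 3498 after water and 1669, 2610.0 and 1423 after ethanol. As for G6pc, each luciferase ethanol library was above all other libraries, here by a small margin: the lowest was 1.24 times the highest of the rest. The mean rose from 2056 ± 731 (SD, n = 5) to 4646 ± 314 (SD, n = 3), a log2 fold change of 1.26 (95% interval 0.53 to 1.98, adjusted p = 0.0351 by limma). This call is less secure than that of G6pc. Leaving out M1, M2, M3, M10, M11 or M12 ended it (adjusted p = 0.0531 to 0.134), and without both M3 and M8 it held (1.03, adjusted p = 0.00993).

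Pck1, the cytosolic carboxykinase, had 11615, 16728, 7773, 11663 and 14358 normalized counts in luciferase water libraries. After ethanol the luciferase libraries had 11236.5, 16433 and 6502. LbNOX livers had 15710.2, 19775, 7412 and 19012 after water and 14659, 11771 and 13602 after ethanol. The luciferase ethanol libraries spanned nearly the whole range of the water libraries and included the lowest value of all 15. The log2 fold change was −0.18 (95% interval −0.91 to 0.55, adjusted p = 0.833 by limma). A rise of 1.26, the estimate for Slc37a4, lies outside this interval. The interval of Slc37a4, 0.53 to 1.98, overlaps that of Pck1, and the genes were not tested against each other. The sign of the Pck1 value turned without M12 (0.17).

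Fbp1, the fructose bisphosphatase, had 11417, 16268, 9409.7, 13793 and 22297 normalized counts in luciferase water libraries. Luciferase ethanol libraries had 23252.5, 20339.7 and 19905. LbNOX livers had 15464.5, 15228, 9456 and 21288 after water and 11514, 15601 and 10799 after ethanol. The ethanol libraries of luciferase livers were at the upper end, but M5 after water lay among them. The mean was 14637 after water and 21166 after ethanol, a log2 fold change of 0.59 (95% interval 0.01 to 1.18) that did not pass (adjusted p = 0.229 by limma).

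Pcx, which supplies oxaloacetate, had 6209, 7934, 5105, 8163 and 6053 normalized counts in luciferase water libraries. Luciferase ethanol libraries had 8202, 9759 and 10804.5. LbNOX livers had 8323, 9506, 6063.5 and 6206 after water and 8496, 5394 and 6074 after ethanol. The luciferase groups did not overlap, although the highest water library, M4, was just under the lowest ethanol library, M10. The log2 fold change was 0.53 (95% interval 0.10 to 0.97) and did not pass (adjusted p = 0.140 by limma). The luciferase ethanol and water libraries thus did not overlap for 3 of 5 members (G6pc, Slc37a4 and Pcx), beside 14.7% of all genes tested with no overlap.

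**Figure D2:**
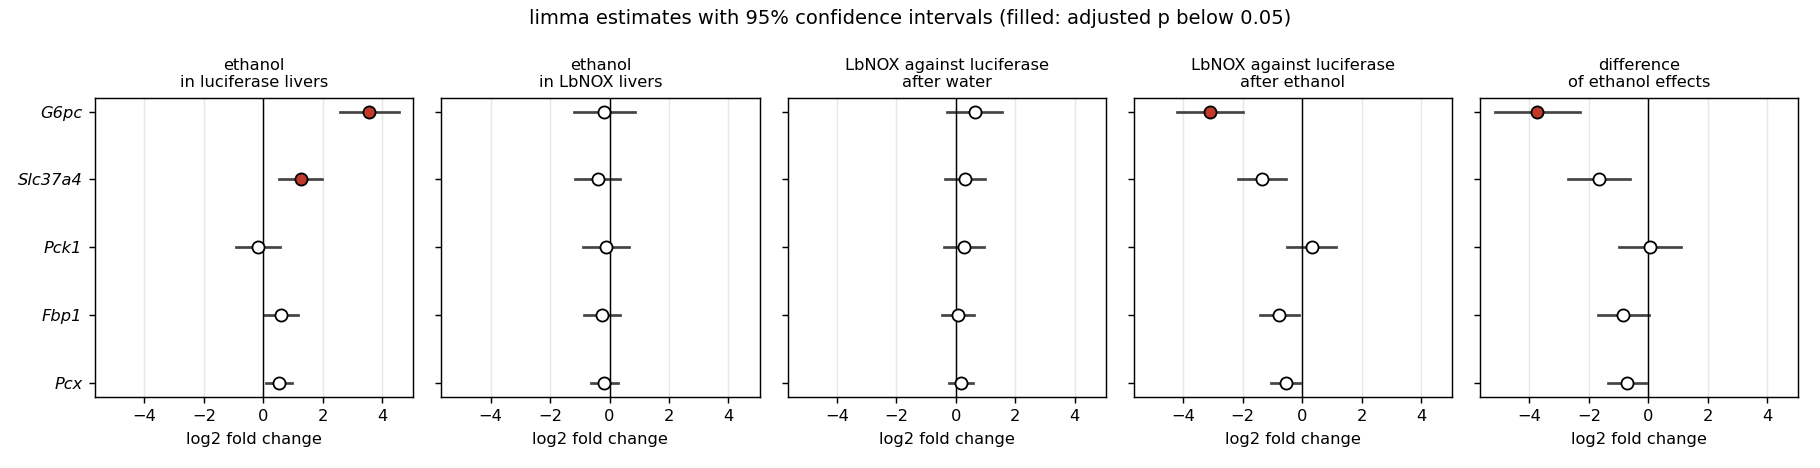
Log2 fold changes of the 5 genes (horizontal axis) in 5 comparisons, with 95% confidence intervals from limma and filled points for an adjusted p below 0.05. G6pc is filled in 3 panels, at 3.57, −3.11 and −3.74, and Slc37a4 in 1 panel, at 1.26.

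In LbNOX livers the message of the last step after ethanol overlapped that of the water controls. G6pc had 4999.5 ± 1741 normalized counts after water (SD, n = 4) and 4408 ± 1817 after ethanol (SD, n = 3). Its log2 fold change was −0.17 with a 95% interval of −1.21 to 0.86. This interval leaves out any rise above 0.86, among them one of the size seen in luciferase livers. It does not leave out a smaller rise, or a fall down to −1.21. Slc37a4 went from 2578 ± 945 to 1901 ± 626, a log2 fold change of −0.40 (95% interval −1.16 to 0.36). The values of Pck1 (−0.12), Fbp1 (−0.24) and Pcx (−0.18) were also small, with adjusted p-values of 0.920, 0.774 and 0.779 by limma. For all 5 members the ethanol and water libraries overlapped, and the share of all genes that overlap was not counted for this comparison. Of all genes, 0.00737% (1 of 13570) were called by limma, with 1571 at an unadjusted p below 0.05, 1 called by edgeR and 282 by DESeq2. None of the 5 members was called by any of the 3 tools, and 0 had an unadjusted p below 0.05 by limma.

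After water the constructs gave overlapping ranges for each member. G6pc was 3424 ± 1442 in luciferase and 4999.5 ± 1741 in LbNOX livers, a log2 fold change of 0.63 (95% interval −0.28 to 1.54). Slc37a4 (0.32), Pck1 (0.26), Pcx (0.16) and Fbp1 (0.08) had smaller values. All 5 overlapped between the constructs, for which the share of all genes was not counted, and had an adjusted p of 0.9996 by limma. These intervals are wide, and that of G6pc includes a 2.91-fold higher level in LbNOX livers. Of all genes, 0% were called by limma, with 440 at an unadjusted p below 0.05, 0 called by edgeR and 18 by DESeq2, and 0 of the 5 members had an unadjusted p below 0.05.

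After ethanol, LbNOX livers had much less G6pc message than luciferase livers. This comparison shares its luciferase ethanol libraries with the one above. G6pc was 4408 ± 1817 in LbNOX and 37891 ± 15043 in luciferase livers, a log2 fold change of −3.11 (95% interval −4.22 to −2.0, adjusted p = 0.00360 by limma). Slc37a4 was 1901 ± 626 against 4646 ± 314, a log2 fold change of −1.34 that narrowly missed the threshold (95% interval −2.15 to −0.52, adjusted p = 0.0524 by limma). It passed without M3 and M8 (adjusted p = 0.00365) and by DESeq2 (adjusted p = 0.00884), and not by edgeR (adjusted p = 0.0582). Fbp1 was 12638 ± 2591 against 21166 ± 1820.1, with no overlap, and did not pass (−0.76, adjusted p = 0.165 by limma). Pcx (−0.55, adjusted p = 0.185) and Pck1 (0.32, adjusted p = 0.676) overlapped between the constructs. With that, 1 of 5 members was called, beside 6.06% of all genes, and 3 of 5 had no overlap, beside 29.6% of all genes tested.

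The difference of the ethanol effects was tested directly, as the effect in LbNOX livers minus that in luciferase livers. For G6pc it was −3.74 on the log2 scale (95% interval −5.17 to −2.31, adjusted p = 0.0130 by limma), beside 1.67% of all genes called. The sign held with each library left out, from −4.05 to −3.35, and the call was lost without M10 (adjusted p = 0.0552) or M15 (adjusted p = 0.0519). For Slc37a4 the difference was −1.66 (95% interval −2.71 to −0.61, adjusted p = 0.116 by limma), which passed without M3 and M8 (−1.72, adjusted p = 0.0125). Fbp1 (−0.84), Pcx (−0.71) and Pck1 (0.06) did not pass, with adjusted p-values of 0.346, 0.273 and 0.966 by limma.

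**Figure D3:**
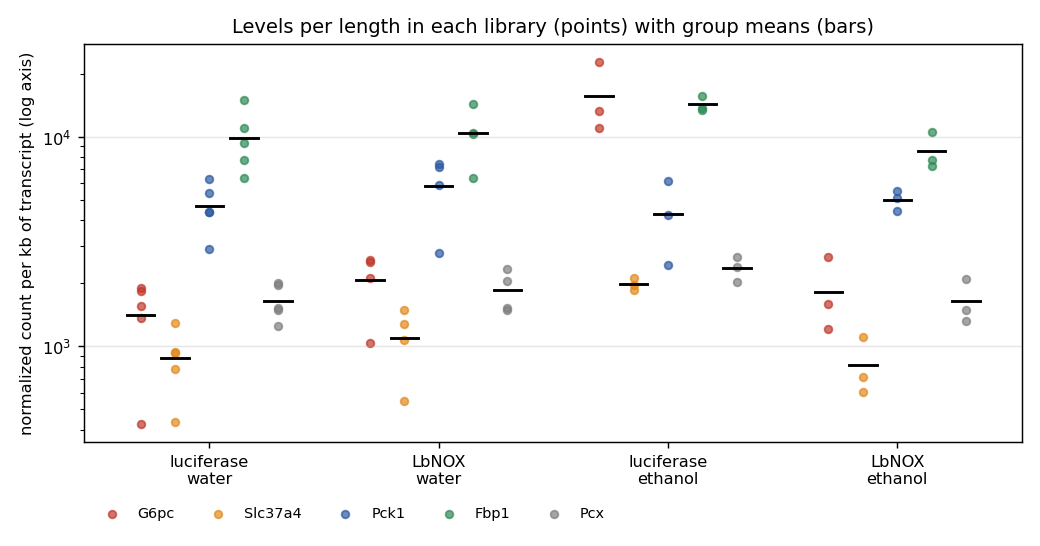
Normalized counts per kb of transcript on a log axis for the 5 genes, with a point for each library and a bar at each group mean. G6pc lies near Pcx in 3 groups and at the level of Fbp1 in luciferase livers after ethanol, where its mean is 15696.

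Levels can be set side by side between the genes once divided by transcript length. In luciferase water livers the order of the mean normalized counts per kb was Fbp1 (9897 ± 3376), Pck1 (4670.3 ± 1262), Pcx (1648 ± 323), G6pc (1419 ± 597) and Slc37a4 (877 ± 312). The ranges of the first neighbours did not overlap, as the lowest Fbp1 library had 6362 and the highest Pck1 library 6286. Pcx and G6pc overlapped, as did G6pc and Slc37a4. In LbNOX livers Fbp1 and Pck1 led after water (10385 ± 3267 and 5816 ± 2127) and after ethanol (8545 ± 1752 and 5015 ± 549), with G6pc at 2071 ± 721 and 1826 ± 753, each overlapping Pcx. In luciferase ethanol livers G6pc came first at 15696 ± 6232 per kb, overlapping Fbp1 at 14311 ± 1231. Pck1 followed at 4281 ± 1867, overlapping Pcx at 2361 ± 322, and Slc37a4 at 1982 ± 134 overlapped Pcx.

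The balance between the phosphatase and its partners moved with it. Per kb, G6pc was 1.56 ± 0.37 times Slc37a4 in luciferase water livers, 1.92 ± 0.40 in LbNOX water, 7.83 ± 2.63 in luciferase ethanol and 2.21 ± 0.20 in LbNOX ethanol livers. The lowest luciferase ethanol ratio, 5.59, was above the highest of any other group, 2.40. The ratio of G6pc to Pck1 was 0.292 ± 0.086, 0.362 ± 0.055, 4.21 ± 2.11 and 0.377 ± 0.197 in the same order. G6pc message was therefore below that of Pck1 in every library outside the luciferase ethanol group, where the lowest ratio was 1.78. These ratios are descriptions without a test.

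Within groups, Slc37a4 and Fbp1 placed the libraries in the same order in 4 of 4 groups. G6pc shared that order in 2 of 4, luciferase water and LbNOX ethanol, and Pck1 did not share it in any. In the luciferase ethanol group M10 was the highest for G6pc, Slc37a4 and Fbp1 but the lowest for Pcx. M12 was the lowest there for Slc37a4, Fbp1 and Pck1 and the highest for Pcx. These orders rest on 3 to 5 libraries a group.

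The genes of the other isozymes were expressed at far lower levels than G6pc and Fbp1. G6pc3, the form found in most tissues, had 143 ± 19.8, 139 ± 10.9, 151 ± 20 and 152 ± 19.2 normalized counts in luciferase livers with water, LbNOX livers with water, luciferase livers with ethanol and LbNOX livers with ethanol, and its log2 fold change in luciferase livers was 0.08 (adjusted p = 0.848 by limma). G6pc2, the islet form, had at most 6.05 normalized counts in any library and was too low to be tested. Fbp2, the muscle form of fructose bisphosphatase, fell in luciferase livers from 83.6 ± 49.4 to 17.8 ± 6.02 (−2.02, adjusted p = 0.0235 by limma). Its call was lost without M1, M10 or M11.

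Genes around the members were read from 6 lists of 80 genes, 78 of them tested. In luciferase livers after ethanol 17 rose and 3 fell, which is 25.6% of those tested beside 7.75% of all genes. The lists were chosen with earlier results of these data known, so that contrast is a description and not a test. The median log2 fold change over the lists was 0.20, beside 0.01 over all genes. Without M10 the count called was 11 and without M11 it was 13. In LbNOX livers 0 were called after ethanol by limma, 0 by edgeR and 1 by DESeq2, with 8 at an unadjusted p below 0.05 and a median of −0.03. After water 0 differed between the constructs by each of the 3 tools, with 1 at an unadjusted p below 0.05 by limma and a median of 0.08.

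Of 8 enzymes shared by glycolysis and gluconeogenesis, 2 rose in luciferase livers, with a median log2 fold change of 0.25. Gpi1, which interconverts glucose 6-phosphate and fructose 6-phosphate, rose from 4341 ± 699.7 to 11522 ± 1854 normalized counts (1.41, adjusted p = 0.000306 by limma). Of 12 genes of the opposing glycolytic steps, 4 rose and 1 fell (median 0.22). Pklr, the liver pyruvate kinase, and Pfkfb3, which makes an activator of phosphofructokinase, rose by 2.10 and 1.79 (adjusted p = 0.00569 and 0.00108), and Pfkl, the liver phosphofructokinase, by 0.85. Pdp1, a phosphatase that activates pyruvate dehydrogenase, fell (−1.60, adjusted p = 0.0156).

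Of 22 tested genes that supply or carry precursors, 6 rose (median 0.39). They include both glycerol 3-phosphate dehydrogenases, Gpd1 (1.48, adjusted p = 0.00178 by limma) and Gpd2 (0.98, adjusted p = 0.00264). Got1, the cytosolic aspartate aminotransferase, rose by 1.27 (adjusted p = 0.00831), and the amino acid carrier Slc38a2 by 0.96 (adjusted p = 0.00733). Of 4 genes of glucose exit and the endoplasmic reticulum, 1 rose: Slc2a2, the glucose transporter of hepatocytes (0.75, adjusted p = 0.0136). Of 30 regulators, 4 rose and 1 fell, with a median of 0.05. Mlxipl, which encodes ChREBP, rose by 1.48 (adjusted p = 0.00448), Foxo1, a forkhead activator of G6pc and Pck1, by 0.64 (adjusted p = 0.0206), and Ppp1r3c, a glycogen-targeting subunit, by 1.71 (adjusted p = 0.000507). Foxa2, another forkhead factor, fell (−0.93, adjusted p = 0.00795), and Ppargc1a, a coactivator of gluconeogenic genes, had a value of 0.20 (adjusted p = 0.750). Calls were lost without M10 for Pfkl, Slc2a2, Foxo1 and Foxa2, without M11 for Pfkl, Pdp1 and Foxo1, and without M12 for Pfkl and Pdp1.

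**Figure D4:**
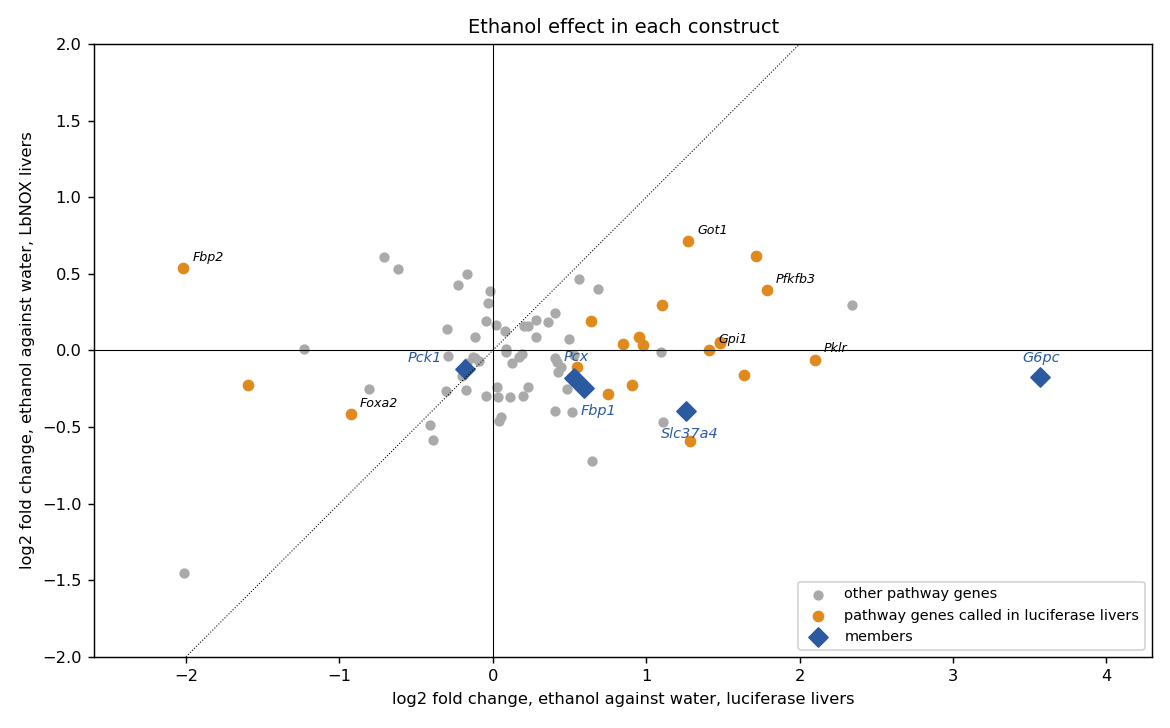
Log2 fold change after ethanol in luciferase livers (horizontal) and in LbNOX livers (vertical) for the 78 pathway genes tested and the 5 members, with a dotted line where both are equal. G6pc lies farthest to the right at 3.57 and near the horizontal zero line at −0.17.

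When the constructs were compared after ethanol, 1 pathway gene was higher and 13 were lower in LbNOX livers. This is 17.9% of those tested beside 6.06% of all genes, again a description because of how the lists were chosen. The median was −0.30, and 1 and 2 were called without M10 and without M15. Gpi1 (−1.38), Pklr (−2.19) and Gpd1 (−1.36) were among those lower. The difference of the ethanol effects was called for 2 of 78 genes, 2.56%, beside 1.67% of all genes. These were Gpi1 (−1.41, adjusted p = 0.0158 by limma) and Slc2a2 (−1.04, adjusted p = 0.0476 by limma). The call of Gpi1 was lost without M10, M12 or M15, and that of Slc2a2 was kept in 9 of 24 alternative fits. The count of 2 was 11 without M8 and 0 without M10, M12 or M15.

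Periportal hepatocytes are known to hold more gluconeogenic message than pericentral ones. The 8 periportal markers had a median log2 fold change of 0.29 in luciferase livers after ethanol. Their summed level ranged from 87446 to 130043 after water and from 106245 to 119176 after ethanol, so the groups overlapped. The 8 pericentral markers had a median of 0.17.

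The genes with levels most like those of G6pc across the 15 libraries were found by the mean absolute difference of log2 values, each gene set to its luciferase water mean, among 9492 genes with a mean of 100 or more. The closest was Thrsp, a lipogenic protein, at a mean distance of 0.25, followed by Plcxd1 (0.36), Acot11 (0.49), Tha1 (0.52) and Slc2a4 (0.53). Plcxd1 and Tha1 reached the mean of 100 only through the luciferase ethanol group, where their means were 491 and 736, against at most 51.5 and 93 in the other groups. Thrsp had group means of 4502, 6131, 31093 and 5251 normalized counts for luciferase and LbNOX with water and luciferase and LbNOX with ethanol, a likeness to G6pc that its selection fixes. Slc37a4 was the 41st closest to G6pc, Fbp1 the 460th, Pcx the 465th and Pck1 the 885th. For Slc37a4 the closest gene was Khk, which phosphorylates fructose, at a mean distance of 0.13. Its group means were 1483, 1767, 4077 and 1361. Next came Cyp2d9 (0.16), Slc25a32 (0.16), Cyp4f15 (0.17) and Gnmt (0.18), with Fbp1 the 53rd closest and Pck1 the 2152nd.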

How the data were processed

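Per the labels' protocols, RNA was extracted with a Qiagen RNeasy kit and a KAPA mRNA kit served for the libraries. Salmon 1.5.1, DESeq2 1.30.1 and mm10 are named in the submitters' processing notes without their roles. The deposited table holds a signal, the authors' normalized counts. Within 0.001, 100% of 244950 values came out as whole reads after division by a factor for each library (0.723 to 1.67), which gave the depths; this bears on the edgeR 4.0.16 and DESeq2 1.42.0 alternatives, run on those reads. Columns name a group and a library, from which groups were taken.

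A single limma 3.58.1 fit (R 4.3.3, mean-variance trend, robust) on log2(normalized count + 1) held the 4 groups, for genes with a level of 10 in a minimum of 3 libraries, and gave 5 contrasts. The script was tested on simulated data. Genes were placed with GENCODE vM21. The members and the gene lists were chosen with earlier results of these data known. Named pathway genes are up to 4 per list by smallest p among those called in luciferase ethanol livers or in the difference, and Pklr, Mlxipl, Foxo1 and Ppargc1a; some genes that this rule chose are left out of the text. For called members the 5 nearest patterns are named. The alternatives tried were other pseudocounts, other filters on low values, quantile normalization, a fit without the trend, a fit restricted to the compared groups, and libraries left out. The pathway counts under alternatives were added after seeing the data.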

Additional observations from a re-analysis of the deposited data

Results flagged for a closer look

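The ethanol effect differed between the constructs, by limma's test of the difference, for G6pc (−3.74 on the log2 scale), Gpi1 (−1.41) and Slc2a2 (−1.04).

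In 46 checks, each of 1 gene in a group of 4 or more libraries, single libraries lay far from the rest in 6 cases. Chance gives about 1 in 20 checks. The checks share the luciferase water and LbNOX water libraries and are not independent, so the 6 cases are a description. None of the 6 cases was in a member. Pfkl had 1095 normalized counts in M2, above the other luciferase water libraries, and Ppp1r3c had 902 in M4. Among the LbNOX water libraries, M8 had Slc2a2 at 5571 and Foxo1 at 698, and M9 had Ppp1r3c at 533 and Foxa2 at 629.96.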

How the results depend on the processing

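G6pc kept its call in luciferase livers in all 25 alternative fits, with log2 fold changes from 3.18 to 3.79. The count of 2 members called there was 1 with no mean-variance trend and 1 to 2 with a library left out. The count of 1 for LbNOX against luciferase after ethanol was 2 with quantile normalization, with a minimum of 50, without M3 and M8 and by DESeq2, 3 with only the groups compared (adding Fbp1, adjusted p = 0.0465), and 1 to 2 with a library left out. The count of 1 for the difference of the ethanol effects was 2 without M3 and M8 and by DESeq2, and 0 to 2 with a library left out, where its value for G6pc ran from −4.05 to −3.35. The cause of these changes was not tested.

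Signs turned for members that were not called. Pck1 in LbNOX livers after ethanol was 0.0754 with quantile normalization, and its difference of the ethanol effects was −0.11 without M3 and M8, −0.0816 by edgeR and −0.0878 by DESeq2. With a library left out, Pck1 ran from −0.49 to 0.17 for ethanol in luciferase livers, −0.44 to 0.0281 in LbNOX livers, −0.0321 to 0.64 between the constructs after ethanol and −0.30 to 0.37 for the difference. Fbp1 between the constructs after water ran from −0.10 to 0.29, and G6pc in LbNOX livers after ethanol from −0.48 to 0.0829.

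Counts over all genes moved more. Ethanol in luciferase livers called 1052 genes (614 with only the groups compared, 1621 by DESeq2, 446 without M10 and 623 without M12), and LbNOX against luciferase after ethanol 822 (1349 by DESeq2, and 299, 332, 399 and 320 without M10, M12, M13 and M15). The difference called 227 (151 with no trend, 395 without M3 and M8, 633 by DESeq2, 64 to 403 with a library left out), and ethanol in LbNOX livers 1 (142 without M3 and M8, 28 without M14). Pathway genes called between the constructs after ethanol, 14, were 9 with no trend, 23 without M3 and M8, 22 by DESeq2, and 8 without M12 or M13. For the difference, 2 became 10 without M3 and M8 and 13 by DESeq2. No paired analysis was possible because the columns carry no replicate numbers. With 3 to 5 libraries a group, small differences between members could not be shown.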
